A study of Mus musculus with 18 samples.

Results

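Expression ratios of 7 membrane transport genes were examined in hearts of mice that lack the taurine transporter Taut and of wild-type mice: the ATP-binding cassette (ABC) transporters Abcb11, Abcc1, Abcc2, Abcc3, Abcc5 and Abcc6, and the bile acid carrier Slc10a1. They are 7 of the 219 named genes on the array and include every gene there whose symbol begins with Abc. The group was chosen by measured values: Abcc6 and Slc10a1 had stood out in the older hearts and Abcc2 and Slc10a1 in the comparison of ages, and the other ABC genes were added by name. The values of the genotype and age comparisons are therefore given below as a description, without a test of a single gene.

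Heart RNA of a wild-type (Wt) and a Taut -/- mouse of the same age was labelled with Cy3 and Cy5 and hybridised together on a spotted oligonucleotide array, and the ratio of that array is the value of a mouse pair. Young mice were 2 months old (5 pairs), and old mice 15 to 16 months (4 pairs). Cy5 marked the knockout heart in young pairs 1, 3 and 5 and in old pairs 1 and 3, and Cy3 marked it in the remaining pairs. The labels name no strain, no treatment and no design of the Taut -/- allele. Each array holds 2 grids, and each of the 7 genes has 2 spots in a grid, so that 4 spots stand behind 1 pair value and 36 behind 1 gene.

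ABC transporters use the energy of ATP to move substrates out of a cell. In the liver, Abcb11 (the bile salt export pump) and Abcc2 (multidrug resistance protein Mrp2) secrete bile salts and conjugated organic anions into bile, while Slc10a1 (Ntcp) takes bile acids up from blood together with sodium. In mice, taurine is the main partner with which bile acids are conjugated before they are secreted. Abcc1, Abcc3, Abcc5 and Abcc6 are family members of wider or other distribution. Abcb11 and Slc10a1 are known above all as genes of hepatocytes, and the sources used here give ratios without intensities, so it is unknown which of the 7 transcripts stood above background in heart tissue.

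The upstream sequences of Abcb11, Abcc2 and Slc10a1 are shown first. The bile acid receptor Nr1h4 (FXR) and related nuclear receptors bind repeats of the half-site AGGTCA and are known to control Abcb11 and Abcc2. RefSeq's promoter table (GRCm38.p6) held 4 of the 7 genes (Abcb11, Abcc2, Abcc5 and Slc10a1). Abcc3, which had the largest age difference and the widest spread of the 7, was not among them. The 250 bases before the annotated start are written 5′ to 3′ on the gene's strand, with matches to AGGTCA on either strand in capitals. The windows are chr2:69342617-69342866 (minus strand) for Abcb11, chr19:43782058-43782307 (plus strand) for Abcc2 and chr12:80968706-80968955 (minus strand) for the upstream start of Slc10a1.
Abcb11: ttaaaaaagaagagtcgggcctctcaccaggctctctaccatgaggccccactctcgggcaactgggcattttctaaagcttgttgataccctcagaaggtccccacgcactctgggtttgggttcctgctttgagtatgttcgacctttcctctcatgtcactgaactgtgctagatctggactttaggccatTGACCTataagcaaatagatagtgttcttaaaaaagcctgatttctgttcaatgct
Abcc2: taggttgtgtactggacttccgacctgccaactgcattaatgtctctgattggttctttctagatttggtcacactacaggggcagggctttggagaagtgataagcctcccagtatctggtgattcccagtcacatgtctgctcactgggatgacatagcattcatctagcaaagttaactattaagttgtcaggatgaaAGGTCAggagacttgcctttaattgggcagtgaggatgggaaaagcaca
Slc10a1: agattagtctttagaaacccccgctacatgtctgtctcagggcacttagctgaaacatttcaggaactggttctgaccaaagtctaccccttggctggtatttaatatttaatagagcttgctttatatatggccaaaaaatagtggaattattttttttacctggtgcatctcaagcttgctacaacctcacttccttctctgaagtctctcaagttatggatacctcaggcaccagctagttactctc
The half-site occurred once in the window of Abcb11, 56 bases before the start on the opposite strand (TGACCT), and once in that of Abcc2, 49 bases before it. There was no match in the Slc10a1 window printed here and 1 match in the window of its second annotated start. Abcc5, whose window held 64.0% G and C against 40.8% to 52.0% for the other 4 windows, had none. Of 32851 windows of the same length in the table, 14.0% held the half-site. A match is a description of letters and does not show that a receptor binds there.

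The deposited value is a log2 ratio between the channels of an array (the scale is read from its limits, given below), and the sources used here do not state which genotype is the numerator. Signs are given as deposited. If the wild-type heart is the numerator, every sign below turns, and if the value is Cy5 over Cy3, the sign turns in the 4 pairs whose knockout heart was in Cy3. The targeted gene does not settle this: Slc6a6 had a positive value in 8 of 9 pairs, from -0.05 to 1.03 in young and from 0.34 to 0.89 in old pairs. The 2 genes whose mean over the pairs was farthest from 0, named after their values were seen, had one sign in nearly all pairs. Nppa, the natriuretic peptide gene of stressed heart muscle, was positive in all 9 pairs, at 3.69, 4.35, 1.28, 2.34 and 1.32 with the knockout heart in Cy5 and at 3.67, 3.58, 3.04 and 3.04 with it in Cy3. Acta1, skeletal muscle actin, was negative in 8 of 9. A genotype difference would change sign with the dye in a Cy5 over Cy3 ratio, where one sign throughout would instead be a dye effect of these probes. Under that reading, fitted without a term for dye, 0 genes were called in the mean of both ages (limma). As deposited 12 were called, with or without that term. For the age difference the order was reversed, with 8 genes called under that reading and 0 as deposited. Values are given below as a ratio between genotypes, with the Cy5 over Cy3 reading as an alternative. Array medians over the 218 tested genes ran from -0.25 to 0.39, and grids of the same array differed by a median of 0.16 in old pair 2 and up to 0.51 in young pair 3.

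Abcc6, an ABC transporter of liver and kidney whose loss leads to calcification of connective tissue and of the heart, was the only ABC gene of the group on the positive side in every old pair. Its log2 ratios were 0.44, 0.89, 0.28 and 0.55 in old pairs 1 to 4. In young pairs 1 to 5 they were 0.17, -0.08, -0.39, 0.19 and 0.37. Old values lay above most young values, but the ages overlapped, because young pair 5 exceeded old pair 3. The mean was 0.54 ± 0.26 (SD, n = 4), a 1.46-fold difference, in old pairs and 0.05 ± 0.29 (SD, n = 5) in young pairs.

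Abcc2, the canalicular exporter of glutathione and glucuronide conjugates, was negative in 4 of 5 young pairs and positive in 3 of 4 old pairs. In young pairs 1 to 5 the log2 ratios were -0.26, -0.42, -0.68, -0.22 and 0.20. Old pairs 1 to 4 had 0.25, 0.98, -0.10 and 0.76. The 2 ranges overlapped only through young pair 5 and old pair 3: without either of these the old pairs lay above the young ones. The means were -0.28 ± 0.32 (SD, n = 5) and 0.47 ± 0.49 (SD, n = 4), which differ by 0.75 on the log2 scale.

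Abcc1 exports glutathione conjugates and leukotriene C4 and is the most widely expressed of these transporters. Its young log2 ratios were 0.01, 0.41, -0.94, 0.43 and -0.52, and its old ones 0.53, -0.02, 0.38 and 0.76. The young pairs spread over a range of both signs, with both pairs whose knockout heart was in Cy3 (0.41 and 0.43) at its top. Old pairs lay within or just above that range, with means of 0.41 ± 0.33 (SD, n = 4) in old and -0.12 ± 0.60 (SD, n = 5) in young pairs.

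Abcc5, an exporter of cyclic nucleotides and nucleotide analogues, had the smallest difference between the ages. Its log2 ratios were -0.20, -0.03, -0.98, 0.23 and -0.24 in young pairs 1 to 5 and 0.30, -0.04, -0.16 and 0.18 in old pairs 1 to 4. Apart from young pair 3, all values lay between -0.24 and 0.30. The means were 0.07 ± 0.21 (SD, n = 4) in old and -0.24 ± 0.45 (SD, n = 5) in young pairs.

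Abcb11, the canalicular bile salt export pump, had a negative log2 ratio in all 5 young pairs: -0.43, -0.12, -0.79, -0.34 and -0.39. Old pairs did not share that sign, with 0.25, 1.72, -2.003 and 1.96. The old values therefore lay on both sides of the young ones and ran from -2.003 to 1.96. Means were 0.48 ± 1.82 (SD, n = 4) in old and -0.41 ± 0.24 (SD, n = 5) in young pairs, so that the old mean was smaller than its own spread. Leaving out old pair 3 gave a mean of 1.31, old pair 4 one of -0.01 and old pair 2 one of 0.07.

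Abcc3, a basolateral exporter of bile salts and glucuronides, had 1 old pair far from the others. Its log2 ratios were -0.37, 3.62, -0.42 and 0.61 in old pairs 1 to 4 and 0.11, -0.98, -0.24, -0.16 and -0.02 in young pairs 1 to 5. A single array, old pair 2, set the old mean of 0.86 ± 1.90 (SD, n = 4), which was -0.06 without it. The young mean was -0.26 ± 0.42 (SD, n = 5).

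Slc10a1, the sodium-dependent uptake carrier for conjugated bile acids, was the only gene of the 7 with a negative value in all 9 pairs. Young pairs 1 to 5 had log2 ratios of -0.12, -0.03, -0.44, -0.12 and -0.13. Old pairs 1 to 4 had -2.21, -0.35, -0.50 and -0.22. Old pair 1 stood far below the rest, and the other old pairs overlapped the young ones. A far low value in old pair 1 was not particular to Slc10a1. The solute carriers Slc5a3 (-3.05) and Slc6a12 (-2.53) had one too, while Slc9a3 (1.14) and Slc38a2 (1.08) had their highest old value there. The old mean was -0.82 ± 0.93 (SD, n = 4) with old pair 1 and -0.35 without it, against -0.17 ± 0.16 (SD, n = 5) in young pairs.

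**Figure D1:**
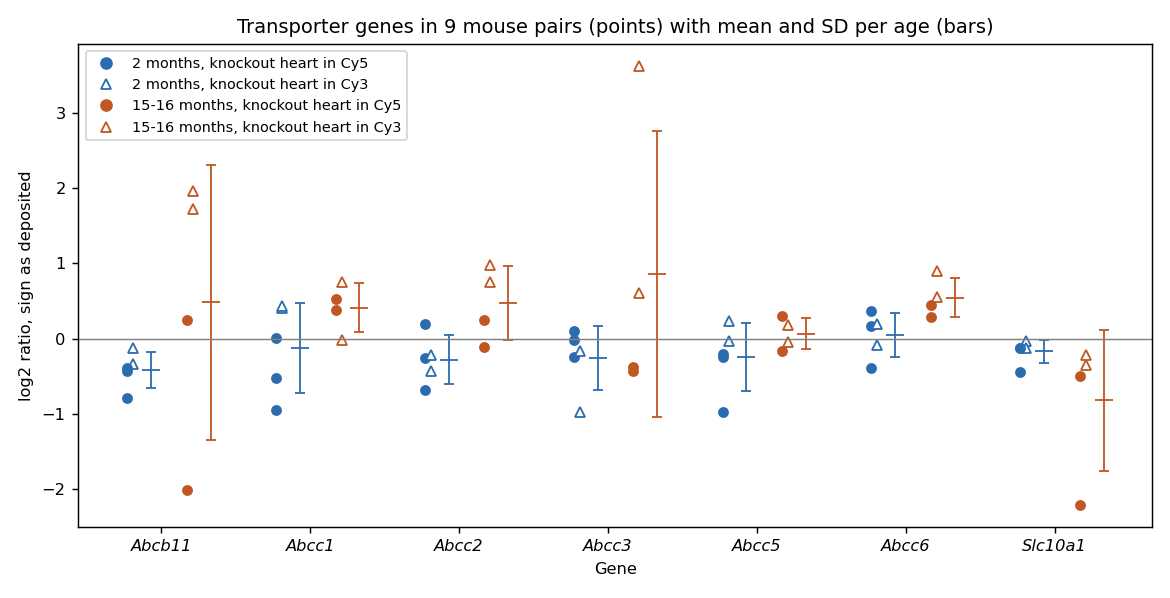
Log2 ratio (sign as deposited) of the 7 genes on the y axis, 1 point per mouse pair, blue for 2 months (n = 5) and orange for 15 to 16 months (n = 4). Filled circles are pairs with the knockout heart in Cy5 and open triangles pairs with it in Cy3, and bars give mean and SD. Abcb11, Abcc3 and Slc10a1 had the widest old values, and all 4 old values of Abcc6 were positive.

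The old values of 3 genes rest on spots at the limits of the deposited scale, which ends at ratios of 0.01 and 100 (log2 -6.64 and 6.64). Of 14 values at these limits among 10492 in the whole table, 5 belonged to the group, which has 252 values. That is 1.98% of the group's values and 0.0879% of all other values. All 5 came from old pairs 1, 2 and 3. A further 8 of the group's values were exactly 0, or 3.17% against 1.68% of the table.

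In Abcb11 the limit values came with exact zeros in the same grid. Grid 2 of old pair 2 held one spot at 6.64 beside one at 0, and grid 2 of old pair 3 one at -6.64 beside one at 0. On grid 1 of these arrays its spots were between -0.97 and 0.65. Abcc3 had both spots of grid 2 at 6.64 in old pair 2, where those of grid 1 were 0.72 and 0.49. For Slc10a1 in old pair 1, the spots of grid 1 were -6.64 and -1.64, and those of grid 2 were 0.25 and -0.79. In each of these arrays one grid lacked the size that the other showed.

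Leaving out the limit values and exact zeros changed the 3 genes differently. Abcc3 lost most of its old mean, which became 0.11 ± 0.58 (SD, n = 4). Slc10a1 kept a negative value in all 9 pairs, with an old mean of -0.50 ± 0.32 (SD, n = 4) and -0.96 in old pair 1. For Abcb11 the old mean rose to 0.71 ± 1.48 (SD, n = 4), with single values of 0.59, 0.13, -0.68 and 2.79. Old pair 4 of Abcb11 was high on 3 of its 4 spots (2.13, 2.42 and 3.30), none of which is at a limit. Abcc1, Abcc2 and Abcc6 had no such value and stayed as they were.

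**Figure D2:**
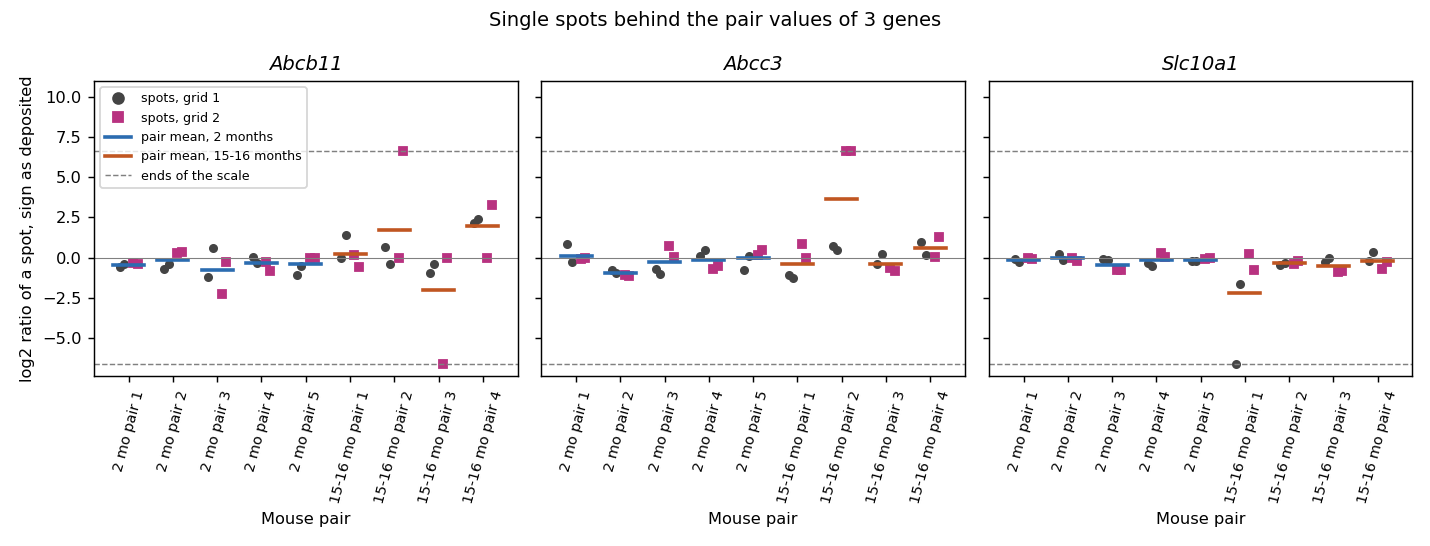
Log2 ratio of each single spot on the y axis for Abcb11, Abcc3 and Slc10a1 in the 9 mouse pairs, with grey circles for grid 1, magenta squares for grid 2, a bar at the pair mean and dashed lines at the ends of the scale. The 5 spots on the dashed lines all lie in old pairs 1, 2 and 3.

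Grids of the same array share both RNA samples, so their difference measures the array and not the mice. Abcc3 and Abcb11 had the 2nd and 5th largest mean difference between grids among 218 genes, at 1.31 and 1.17 on the log2 scale, and Slc10a1 the 14th (0.77), where the median gene had 0.38. Their SDs over the 9 pairs were also among the largest: 1.34 for Abcc3 (4th), 1.22 for Abcb11 (5th) and 0.68 for Slc10a1 (24th), against a median of 0.40. Abcc2 (0.38), Abcc1 (0.38) and Abcc5 (0.29) had grids that differed about as much as or less than those of the median gene, and Abcc6 (0.50) somewhat more.

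The sign agreed between the grids in 8 of 9 arrays for Abcc2, Abcc5 and Abcc6, in 7 for Abcc1, in 6 for Abcb11 and Slc10a1 and in 4 for Abcc3. For Abcc6, both grids were positive in all 4 old pairs (0.27, 0.58, 0.50 and 0.47 on grid 1, and 0.62, 1.21, 0.07 and 0.63 on grid 2). Single spots of Abcc6 were negative in old pair 3, at -0.14 on grid 1 and -0.27 on grid 2. Abcc6 was chosen by its old values, which average both grids, so the shared sign of the grids is a description and no separate support. For Slc10a1, grid 1 was slightly positive in young pair 2 and old pair 4 (0.04 and 0.05), and grid 2 in young pair 4 (0.18).

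**Figure D3:**
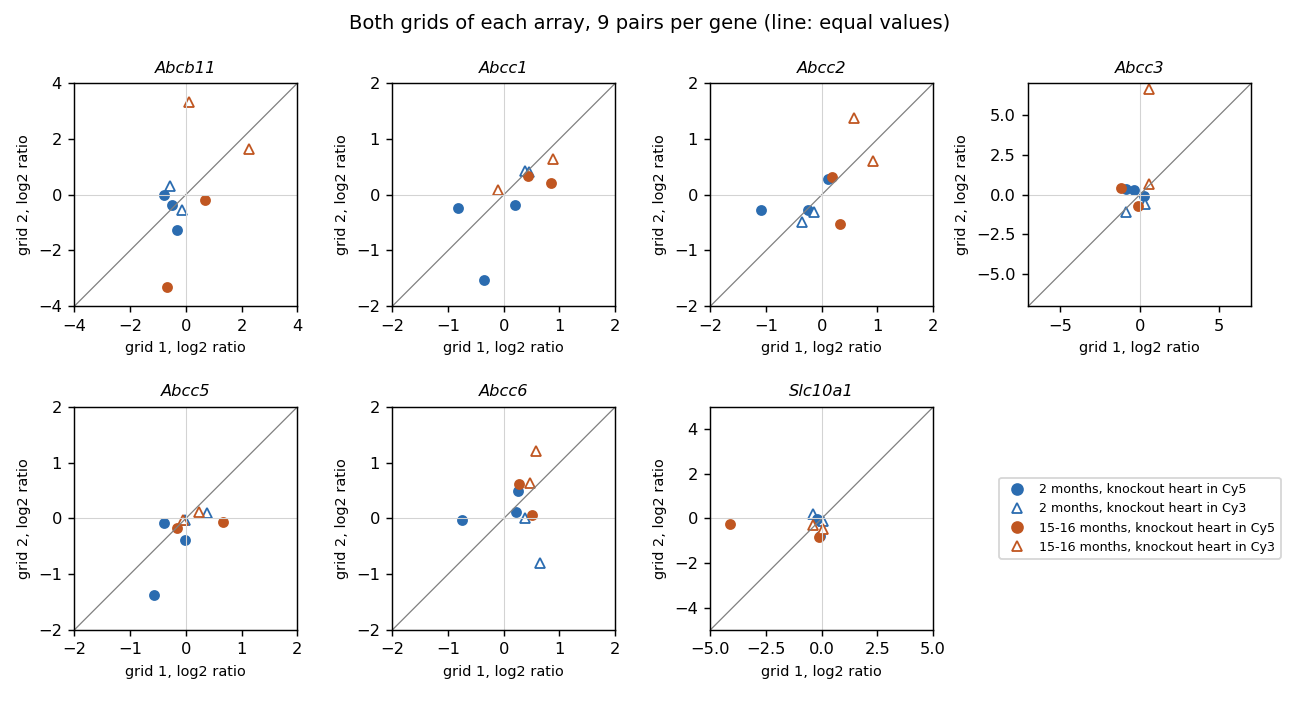
Mean log2 ratio on grid 1 (x axis) against grid 2 (y axis) of the same array, 9 mouse pairs per gene, with the line of equal values and a scale of its own for each gene. Points of Abcc1 and Abcc5 follow the line more closely than those of Abcb11 and Abcc3, where single arrays lie 3.19 and 6.04 apart.

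**Figure D4:**
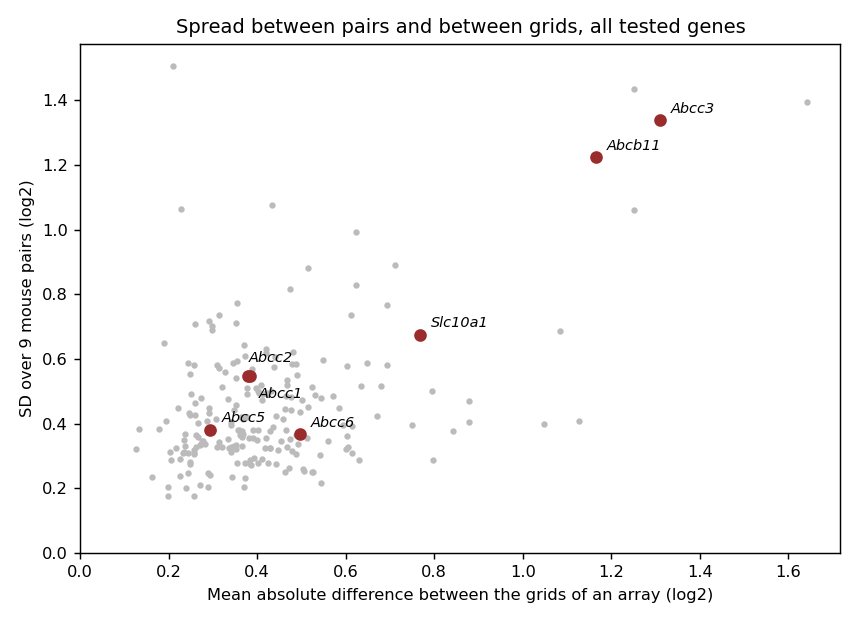
Each of the 218 tested genes by the mean absolute difference between the grids of an array (x axis, log2) and the SD over 9 mouse pairs (y axis, log2), with the 7 transporter genes in red. Abcc3 and Abcb11 lie at the far upper right, Slc10a1 lies between them and the bulk of the genes, and the points of Abcc1 and Abcc2 coincide.

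The comparison of ages asked whether the ratio between the genotypes differed between young and old hearts. For all 6 ABC genes the old mean lay above the young mean, by 1.12 for Abcc3, 0.90 for Abcb11, 0.75 for Abcc2, 0.54 for Abcc1, 0.49 for Abcc6 and 0.31 for Abcc5 on the log2 scale. For Slc10a1 it lay 0.65 below. Ordered over the 218 genes from the highest difference, the ABC genes took places 2, 3, 4, 8, 11 and 16, and Slc10a1 took place 215. With the sign turned, the ABC genes would take places 217, 216, 215, 211, 208 and 203, and Slc10a1 place 4. Among all tested genes 31.7% had a positive difference in the fit, with a median of -0.13, and the median of the 6 ABC genes was 0.61. Since this contrast was in view when the group was chosen, these places are a description.

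No gene of the group had ages that did not overlap, and over all genes 1 of 218 (0.459%) had. All 6 ABC differences were positive when any 1 of the 9 pairs was left out, on each grid alone, and after the limit values and zeros were removed. Under the alternative reading as Cy5 over Cy3, 2 of the 6 were positive (0.50 for Abcc1 and 0.32 for Abcc5), and the others were -0.19 for Abcc6, -0.38 for Abcc2, -1.13 for Abcb11 and -1.46 for Abcc3. Slc10a1 was negative under both readings (-0.43 as Cy5 over Cy3). Leaving out 1 array moved several sizes by more than 1.5 times. The difference of Slc10a1 was -0.19 without old pair 1, and that of Abcc3 was 0.20 without old pair 2. For Abcb11 the removal of old pair 2 gave 0.48, of old pair 3 1.72 and of old pair 4 0.40. Young pair 3 carried part of those of Abcc1 and Abcc5, which were 0.33 and 0.13 without it.

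**Figure D5:**
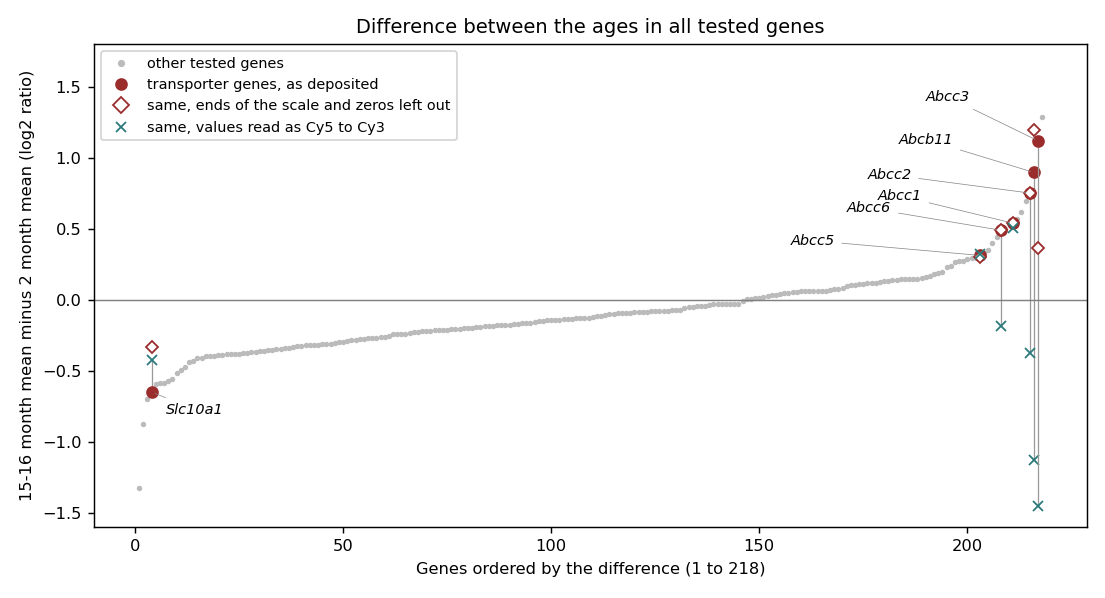
Old mean minus young mean of the log2 ratio (y axis) for 218 genes ordered by that difference (x axis). Red points are the 7 transporter genes as deposited, open diamonds the same with limit values and zeros left out, and crosses the same with values read as Cy5 over Cy3. The 6 ABC genes lie at the upper end as deposited, and 4 of their crosses lie below 0.

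In the linear model across all 218 genes (limma, Benjamini-Hochberg adjusted p under 0.05), none of the 7 genes was called in any comparison. Young pairs gave 0 of 7 calls against 0.459% of all genes (at an unadjusted p under 0.05, 0 of 7 against 26 of 218), and old pairs 0 of 7 against 0.459% (unadjusted 3 of 7 against 23 of 218). The mean of both ages gave 0 of 7 against 5.5% of all genes (unadjusted 2 of 7 against 40 of 218), and the difference between ages 0 of 7 against 0% (unadjusted 1 of 7 against 2 of 218). These contrasts were in view when the genes were chosen, so nothing is read from the counts.

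The dye of the knockout heart was not used to choose the group, and its coefficient was tested in the same fit. With the knockout heart in Cy5, all 7 genes had a lower log2 ratio than with it in Cy3, where 61.5% of all tested genes did. It is named for dye because values are given as a ratio between genotypes. If they are Cy5 over Cy3, the same coefficient would hold the genotype difference instead. Abcb11 had the largest coefficient, -1.40 ± 0.49 (SE; 95% interval -2.46 to -0.34; adjusted p = 0.789, limma), with a mean of -0.67 ± 0.83 (SD, n = 5 pairs in Cy5) and 0.81 ± 1.20 (SD, n = 4 pairs in Cy3). Those of the others ran from -0.86 ± 0.62 (SE) for Abcc3 to -0.17 ± 0.25 (SE) for Abcc6, each with an adjusted p of 0.936. These sizes include the limit values. Without limit values and exact zeros, the plain difference between Cy5 and Cy3 means went from -1.48 to -1.03 for Abcb11. It went from -0.97 to -0.21 for Abcc3, from -0.50 to -0.25 for Slc10a1 and from -0.34 to -0.35 for Abcc5. The difference stayed negative for all 7 genes. None of the 7 genes was called for dye, nor was any of the 218 (0%, and 10 at an unadjusted p under 0.05).

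Within the ages, dye orientation and pair value were tied in several genes. Both old pairs with the knockout heart in Cy3 lay above both in Cy5 for Abcb11, Abcc2, Abcc3, Abcc6 and Slc10a1, which is 5 of 7 genes against 42.7% of all genes. Without limit values and exact zeros Abcb11 lost this order, with 0.13 in old pair 2 (Cy3) below 0.59 in old pair 1 (Cy5). Both young Cy3 pairs lay above all 3 in Cy5 for Abcb11, Abcc1 and Abcc5, which is 3 of 7 against 14.2%. The array medians of the old pairs were also higher in Cy3 (-0.03 and 0.39) than in Cy5 (-0.25 and -0.19). Those of the young pairs did not have this order. The opposite order of values was not counted at either age. Over both ages together, 0 of 7 genes had dye orientations that did not overlap, against 1.83% of all genes. The part of the dye in the old values was not tested beyond this coefficient.

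Likeness between genes was measured as the mean absolute difference of their values over the 9 pairs, after the mean of each gene was subtracted. By this measure genes of small spread lie near one another. A gene with equal values in all pairs would lie 0.26 from Abcc5 and from Abcc6 and 0.40 from Slc10a1. It would lie 0.43 from Abcc1, 0.44 from Abcc2, 0.84 from Abcc3 and 0.88 from Abcb11. Abcc2 and Abcc6 were each other's nearest gene of the 218 (0.18, where the median gene was 0.53 from Abcc2 and 0.43 from Abcc6). Abcc5 was the nearest gene to Abcc1 (0.20), while Atp2a3, a calcium pump, was nearest to Abcc5 (0.14). Abcb11 was nearest to Abcc2 (0.56) and then to Ahsg, the hepatocyte glycoprotein fetuin-A (0.67). Abcc3 lay nearest to the water and glycerol channel Aqp9 (0.54). In old pair 2, where both grid 2 spots of Abcc3 were at the limit of the scale, Abcc3 had 3.62 and Aqp9 3.31. Aqp9 had the largest mean difference between grids of the 218 genes (1.64, and up to 6.67). The part of this array in their likeness was not tested. Slc10a1 lay nearest to the mitochondrial chaperonin Hspd1 and the matrix protease inhibitor Timp2 (0.26 each). The second nearest genes were Entpd1 for Abcc1 (0.22), Nme1 for Abcc2 (0.24), Abcc2 for Abcc3 (0.64), the amino acid transporter Slc38a2 for Abcc5 (0.18) and Gjb5 for Abcc6 (0.19). All 7 genes were compared over the same 9 arrays, and the spots of Abcc2 and Abcc6 are 6 rows apart in the deposited table, as are those of Abcc1 and Abcc5. Genes within 8 rows of each other had a median distance of 0.36 (412 pairs of genes) against 0.43 for those farther apart (19688 pairs of genes), and the part of position in these likenesses was not tested.

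Other genes of the same physiology were called in the mean of both ages alone, where 5.5% of all genes were called. Of 19 listed genes of bile acid synthesis, conjugation and sensing only Baat was measured, the enzyme that joins bile acids to taurine, and it was not called (-0.16 ± 0.17, SE, n = 9 pairs; adjusted p = 0.675, limma). Among 5 measured genes of taurine transport and synthesis 1 was called on the positive side (Slc6a6, the targeted gene, 0.59 ± 0.12, SE; adjusted p = 0.0154, limma), and the list median was 0.02 against 0.03 for all genes. Csad, which makes the precursor of taurine, had 0.30 ± 0.14 (SE). The 24 other solute carriers and aquaporins had 3 calls, all positive, and a median of 0.04. Slc38a2, an amino acid transporter, was the farthest from 0 among them (0.67 ± 0.13, SE; adjusted p = 0.0148, limma), followed by Slc6a6, which is on both lists. These 24 genes had no shared sign for the age difference, with 12 positive and 12 negative and a median of -0.0013.

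The list of glutathione and conjugation genes had 4 measured genes (Gsr, Hmox1, Mt1 and Nqo1). None of its conjugating transferases was measured, so these genes do not describe the supply of substrates to the Abcc exporters. The 1 call was on the negative side: Nqo1, a quinone reductase (-0.51 ± 0.12, SE). Mt1, a metallothionein, had -0.31 ± 0.28 (SE). Of 23 listed receptors and transcription factors only Sp1 was measured, and it was called positive (0.63 ± 0.14, SE).

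Markers of hepatocytes, the cells in which Abcb11, Abcc2 and Slc10a1 are best known, were not called. All 6 of 24 listed markers that were measured (Ahsg, Alb, Apoa1, Baat, Cps1 and G6pc) missed the threshold, and their mean per pair ran from -0.10 to 0.37 in young and from -0.45 to 0.49 in old pairs. Cps1, of the urea cycle, had 0.31 ± 0.14 (SE), and Apoa1, an apolipoprotein, -0.16 ± 0.14 (SE). Cardiomyocyte markers (5 of 14 measured, 0 called, pair means -0.15 to 0.21 in young and -0.28 to 0.17 in old pairs) were led by Mb at -0.35 ± 0.15 (SE) and Ryr2 at 0.27 ± 0.12 (SE). Endothelial markers (7 of 10, 0 called) ran from -0.31 to 0.24 and from -0.17 to 0.30, with Kdr at -0.22 ± 0.14 (SE) and Tek at 0.17 ± 0.13 (SE). Fibroblast markers (6 of 10, with Fn1 called at 0.61 ± 0.16, SE) ran from 0.08 to 0.82 and from -0.12 to 0.81, and Col3a1 had 0.41 ± 0.20 (SE). Of leukocyte markers 2 of 10 were measured (Il10, -0.73 ± 0.26, and Ncf1, 0.22 ± 0.12, SE, with 0 called). Their pair means ran from -0.28 to 0.73 in young and -2.06 to 0.05 in old pairs. The lowest came from Il10 in old pair 1 (-3.99), where Ncf1 had -0.14. In a whole heart, fewer cells of a type and less RNA per cell cannot be told apart, and the part of cell composition in the transporter values was not tested.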

How the data were processed

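RNA of hearts in 9 mouse pairs was measured on 9 arrays, and 2 grids per array give the 18 deposited columns. Per the labels, the authors set aside 20% of the signals at either end and normalized each channel globally on the rest. The deposited values are read as log2 ratios because they end at log2 of 0.01 and 100. The sources used here name no background correction, spot filter or intensity. Precision is limited by the number of arrays.

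Of 768 features, 584 had values and 528 of these a gene symbol. Spots were averaged per gene and grid, then over grids. The 218 of 219 genes measured in 3 or more pairs at each age were fitted with limma 3.58.1 (R 4.3.3), two-sided, with Benjamini-Hochberg adjustment. The model had a mean per age and a term for the knockout heart's dye, and was tested on simulated data with 40 of 218 genes shifted. A log2 shift of 0.6 was called in 75.1% of shifted genes for the mean of both ages. For the age difference it was called in 5.9% and for dye in 1.4%, so 0 calls there say little about shifts of that size. A shift of 1.2 was called in 98.6%, 81.1% and 79.2%. These shares are averages over genes drawn from all 218, with independent normal noise. Abcb11 and Abcc3 had wide errors (SE 0.49 and 0.62 for the age difference and for dye), so the shares do not describe these genes. For them, 0 calls say little about a shift of 1.2 either. Means ± SD are plain means of pairs, and values with an SE are fitted.

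The genes, lists and the rule for named genes (the 7 genes, Slc6a6, the 2 genes of each list farthest from 0 and the 2 most like each of the 7) were chosen with earlier results of these data known. Per the series' design text the pairs are different mice. Alternatives covered the dye term, separate fits, centring, scaling, each grid, limit values, medians of spots, missing values, robust regression, the reading of the ratio, pair numbers and each pair left out. Removing both arrays with the largest grid differences was added after the data were seen. Figures used Python 3.11.15 and matplotlib 3.10.9.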

Additional observations from a re-analysis of the deposited data

Results flagged for a closer look

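In 14 sets of pair values (7 genes, 2 ages), the gap of an extreme pair to the next was divided by the whole range. This ratio passed Dixon's 95% value in 2 sets. For normally distributed values, chance flags about 1 set in 20. Both sets were of Slc10a1, a gene chosen by its measured values, and the share over all genes was not computed. Nothing is therefore read from the count. Slc10a1 in old pair 1 was -2.21 (gap over range 0.858), with spots of -6.64 and -1.64 on grid 1 and 0.25 and -0.79 on grid 2. As given above, Slc5a3 and Slc6a12 also had a far low value in that pair. Slc10a1 in young pair 3 was -0.44 (gap over range 0.759), and that array had the largest difference between grids of the 9.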

How the results depend on the processing

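The numerator and the depth of signal over background are unknown, which limits every sign and level; the arrays number 9. Counts of called transporter genes moved from 0 to 2 in old pairs (each age fitted alone, where the prior spread of limma took over, with 436 degrees of freedom), to 1 in both ages (arrays centred and scaled; robust regression), and ranged from 0 to 1 in old pairs and in the age difference over the fits that left out a pair (1 without old pair 3). The genes were chosen with these contrasts in view, so the counts support no gene. Read as Cy5 over Cy3, the ABC genes with a positive age difference numbered 2, and the difference was -1.13 for Abcb11, -0.38 for Abcc2, -1.46 for Abcc3 and -0.19 for Abcc6. The other alternatives kept every age difference of the 7 genes on its side of 0, with 6 positive ABC genes. Each difference also stayed within 1 SD of its value, where the SD is that of the gene's own pairs within the ages. That bound is wide for genes with a far pair and shows little about stability. It held Abcc3 going from 1.12 to 0.20 without old pair 2 and Slc10a1 from -0.65 to -0.19 without old pair 1. Counts over all genes ran from 1 to 14 in young, 0 to 11 in old pairs, 0 to 24 in both ages (12 as reported), 0 to 8 for the age difference and 0 to 3 for dye. Without the shared shift of the array medians (median age difference -0.13 over all genes) the 6 ABC differences were positive too.

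A replicate block on pair number (pairs 1 to 4) called 0 genes for the age difference, as without it; Abcc2 had 0.87 and Slc10a1 -0.64. Equal numbers did not deviate together (correlations across genes, which are not independent, of -0.15, -0.22, -0.07 and -0.27).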
